A study of Mus musculus with 8 samples.

Results

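The sarcomere structural genes are 36 genes for the proteins of the contractile unit of striated muscle, out of 21883 protein-coding genes on 21 chromosomes of the GRCm38.p6 annotation. They were chosen by name, and all 36 were found in the annotation. Binding of phosphorylated CREB1 was measured at them by ChIP-seq, the sequencing of DNA fragments pulled down with an antibody to the protein, in muscle of male Balb/c mice. CTRL mice were the controls, and C26 mice carried a subcutaneous tumor grown from C26 cells, a mouse colon adenocarcinoma line used as a model of cancer cachexia, injected at 2 months of age. The treatment of the CTRL mice is not given further in the labels. Each group had 2 phospho-CREB1 libraries and 2 inputs, which are sonicated chromatin without the antibody step, and nothing in the labels says whether libraries came from separate mice. The treatment protocol has C26 mice receiving rolipram, a phosphodiesterase 4 inhibitor, or vehicle, without saying which applied to these libraries. It is also unclear from the labels whether the tissue was gastrocnemius (sample labels) or quadriceps (extraction protocol), and the protocol names antibodies to CREB or to phospho-CREB1.

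A sarcomere is built from thick filaments of myosin, thin filaments of actin with troponin and tropomyosin, the spring-like protein titin, and Z-discs that anchor the thin filaments. Many of these proteins exist as fast-fiber, slow-fiber and developmental isoforms made from separate genes, and the hindlimb muscles named in the labels are mostly fast. CREB1 is a transcription factor that is phosphorylated after a rise in cAMP and binds the cAMP response element, TGACGTCA, or its shorter form, TGACG, usually in promoters.

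Each phospho-CREB1 library came with its own list of peaks called against an input. The CTRL lists held 10835 and 14975 peaks for replicates 1 and 2 and the C26 lists 7482 and 4051, so that both C26 lists were shorter than both CTRL lists. Sequencing depth is unknown. A gene without a peak did not pass the threshold in that library, which does not show that it was unbound. A peak is called an end peak here when no more than 1000 bp separated its summit from an end of the gene span, and an inside peak when its summit lay elsewhere in the span. Fold enrichment over input is the authors' own value for each peak, scaled within its library, and is not compared between libraries. As a check of the tissue, 6 of 8 genes of mature muscle fibers had an end peak in both CTRL libraries (75%, all genes 32.1%), among them Ckm, which encodes muscle creatine kinase. Of these 6, 5 had none in C26 muscle (62.5% of the list, all genes 7.4%), and Ckm had one in C26 replicate 1. In a tissue sample, fewer cells of a type and less signal per cell cannot be told apart. No end peak was found in any library at the 5 leukocyte, 5 epithelial and 3 satellite cell markers or at 7 heart isoform genes, although Myl4 (heart list) had an inside peak in all 4 libraries, Myh7b (heart list) in 1 and Pax7 (satellite list) in 2. Of 5 endothelial and 5 fibroblast markers, 2 of each had an end peak in CTRL replicate 2 and in no other library. In the smooth muscle list of 7 genes, Lmod1 had one in both CTRL libraries.

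The promoter sequences below show 3 sarcomere gene starts with a peak in at least 3 libraries and an inner start of Tpm3 with a peak in all 4, beside 2 starts of other members, with a peak in no library (Myh7) or in CTRL replicate 2 alone (Acta1). They are RefSeq sequences of GRCm38.p6, running from 250 bases before to 50 bases after an annotated start, and are printed in the direction of the gene. Capitals mark TGACG or its reverse complement in Des (desmin, the intermediate filament that ties Z-discs together), Tpm1 (alpha-tropomyosin) and Myh7 (slow myosin heavy chain). They mark a CANNTG sequence (E box) in Tpm3, a MEF2 motif in Ttn (titin) and a CArG motif, the letters bound by serum response factor, in Acta1 (skeletal alpha-actin). The windows are chr1:75360042-75360341 (plus strand) for Des, chr9:67049164-67049463 (minus) for Tpm1 and chr3:90079271-90079570 (plus) for the inner Tpm3 start. They are chr2:76982498-76982797 (minus) for Ttn, chr14:54994577-54994876 (minus) for Myh7 and chr8:123894726-123895025 (minus) for Acta1.
Des: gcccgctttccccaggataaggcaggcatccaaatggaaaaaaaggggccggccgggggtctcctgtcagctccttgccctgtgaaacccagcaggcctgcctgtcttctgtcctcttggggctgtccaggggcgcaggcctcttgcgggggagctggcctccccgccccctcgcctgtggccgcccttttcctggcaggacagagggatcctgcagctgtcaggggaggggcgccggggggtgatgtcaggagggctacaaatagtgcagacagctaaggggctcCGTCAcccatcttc
Tpm1: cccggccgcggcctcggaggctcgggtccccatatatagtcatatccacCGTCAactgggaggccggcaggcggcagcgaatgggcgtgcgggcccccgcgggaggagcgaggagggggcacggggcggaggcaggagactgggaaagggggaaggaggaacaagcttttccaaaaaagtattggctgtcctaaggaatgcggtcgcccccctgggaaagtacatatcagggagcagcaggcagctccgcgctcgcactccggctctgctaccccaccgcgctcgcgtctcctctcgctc
Tpm3 inner start: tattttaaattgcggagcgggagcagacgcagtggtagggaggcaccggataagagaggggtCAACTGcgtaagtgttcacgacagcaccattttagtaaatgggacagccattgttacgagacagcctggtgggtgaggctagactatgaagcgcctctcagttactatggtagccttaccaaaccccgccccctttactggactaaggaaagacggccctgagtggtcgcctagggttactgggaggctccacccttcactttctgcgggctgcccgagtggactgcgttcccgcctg
Ttn: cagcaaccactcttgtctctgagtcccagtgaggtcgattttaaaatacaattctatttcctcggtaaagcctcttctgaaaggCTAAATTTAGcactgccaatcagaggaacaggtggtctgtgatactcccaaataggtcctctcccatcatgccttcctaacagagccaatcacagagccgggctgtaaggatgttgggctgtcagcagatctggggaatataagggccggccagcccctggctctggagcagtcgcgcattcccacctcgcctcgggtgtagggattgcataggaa
Myh7: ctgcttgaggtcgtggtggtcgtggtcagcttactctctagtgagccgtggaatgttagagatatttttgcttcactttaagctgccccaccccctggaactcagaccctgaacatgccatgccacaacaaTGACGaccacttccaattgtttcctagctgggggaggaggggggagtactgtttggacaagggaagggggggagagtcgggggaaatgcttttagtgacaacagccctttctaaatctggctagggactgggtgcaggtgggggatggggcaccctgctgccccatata
Acta1: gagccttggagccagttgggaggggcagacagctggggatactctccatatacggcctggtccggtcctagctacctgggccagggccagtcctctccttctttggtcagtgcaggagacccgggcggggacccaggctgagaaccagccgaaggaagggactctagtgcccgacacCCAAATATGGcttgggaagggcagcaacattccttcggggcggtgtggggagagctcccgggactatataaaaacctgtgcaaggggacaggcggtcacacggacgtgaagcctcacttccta

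Of the 36 sarcomere genes, 12 had an end peak in both CTRL libraries (33.3%), beside 32.1% of all protein-coding genes. By library, CTRL replicate 1 had end peaks at 12 members (33.3%, all genes 33.9%) and CTRL replicate 2 at 19 (52.8%, all genes 40.1%). C26 replicate 1 had them at 9 (25%, all genes 26.1%) and C26 replicate 2 at 3 (8.33%, all genes 14%). The members' share was thus above that of all genes in CTRL replicate 2 and below it in the other libraries. At 17 members (47.2%) no library had an end peak, as at 57.7% of all genes. Inside peaks were present in both CTRL libraries at 11 of 36 members (30.6%) and at 8.33% of all protein-coding genes. By library the inside shares were 30.6% and 50% for CTRL replicates 1 and 2 (all genes 10% and 13.8%) and 13.9% and 11.1% for C26 replicates 1 and 2 (all genes 6.8% and 3.99%). These are 3.05, 3.62, 2.04 and 2.78 times the shares of all genes. Some inside peaks of the members lay within 1000 bp of an annotated start inside the span, at Tpm3, Ldb3 and Myl1. No inside peak in any library was found at 18 members (50%) and 83.6% of all genes. Of the 27 members with an annotated start in the RefSeq promoter table, 7 had a peak within 1000 bp of a start in both CTRL libraries (25.9%, all genes 34.8%), namely Des, Mybpc2, Tnnc2, Tpm1, Tpm2, Tpm3 and Ttn. The start peak was missing from C26 muscle at 2 of them (7.41% of members, 7.98% of all genes), present in 1 C26 library at 3 (11.1%, all genes 13.1%) and in all 4 libraries at 2 (7.41%, all genes 13.7%). No member had a start peak in both C26 libraries and none in CTRL muscle (0.0114% of all genes), and 13 members had none in any library (48.1%, all genes 55%). The median span was 19375 bp for the members and 17170 bp for all genes. Among spans under 20000 bp both CTRL libraries had an inside peak at 4 of 18 members (22.2%) and 3.44% of all genes, and among longer spans at 7 of 18 (38.9%) and 14.1%. These are counts over a chosen list and carry no test.

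**Figure D1:**
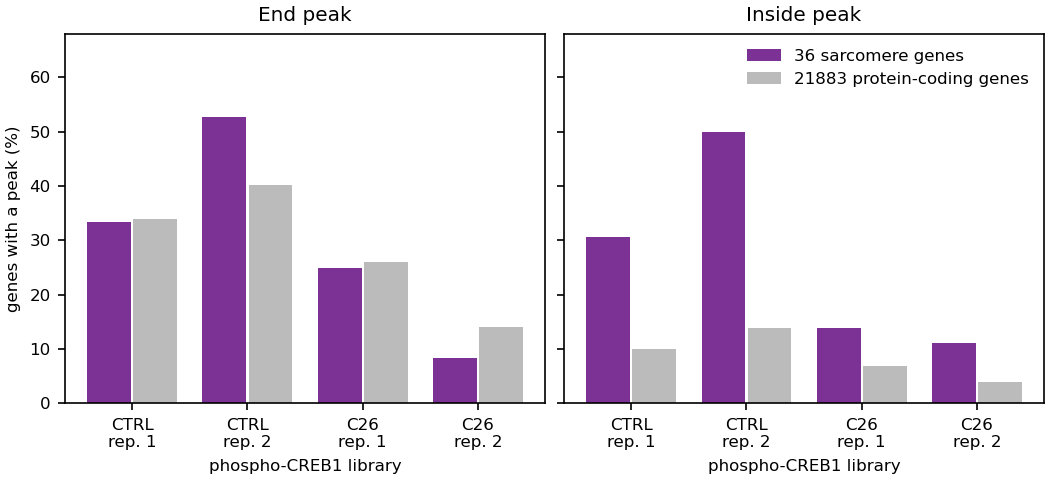
Percent of genes with an end peak (left) and an inside peak (right) in each phospho-CREB1 library, for the 36 sarcomere genes (purple) and 21883 protein-coding genes (grey). End shares of the members are above the grey bar in CTRL replicate 2 alone, and inside shares are 2.04 to 3.62 times as high as the grey bars.

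End peaks of sarcomere genes were weak within their own lists. Ranked by −log10 q, with 100 for the strongest peak of a list, the members' end peaks had median percentiles of 24.7 and 32.0 for CTRL replicates 1 and 2 and 24.3 and 33.2 for C26 replicates 1 and 2. All peaks near an end of a protein-coding gene had medians of 61.3, 66.2, 58.6 and 60.0 in the same order. No end peak of a member was above percentile 90 of any list. Inside peaks of the members had median percentiles of 33.0, 34.6, 29.3 and 45.7, near those of all inside peaks (33.7, 33.3, 36 and 35.7). When every list was trimmed to its 4051 strongest peaks, 0 of 36 members kept an end peak in both CTRL libraries, while 14.6% of all genes had one. In the trimmed lists 3 of 36 members had an inside peak in both CTRL libraries, beside 2.07% of all genes.

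**Figure D2:**
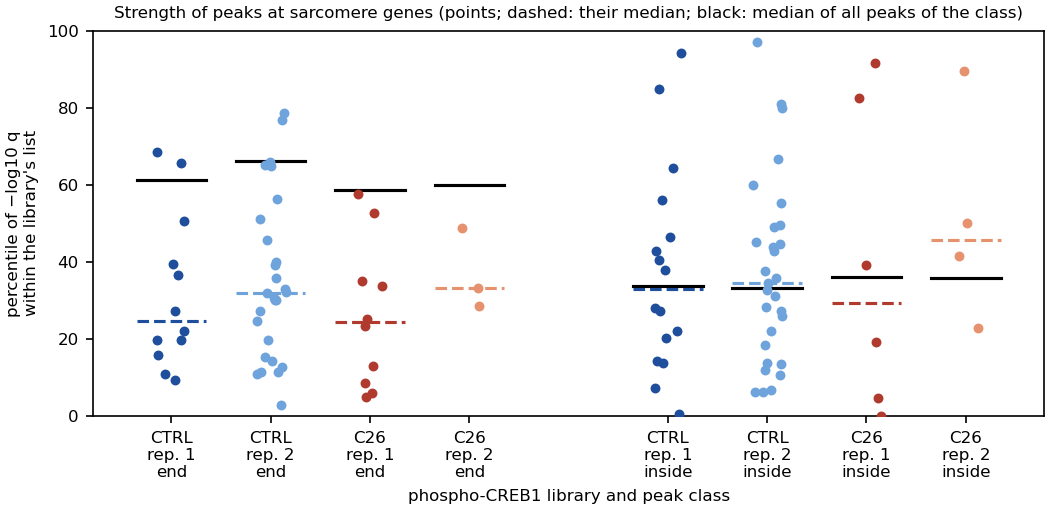
Percentile of each sarcomere gene peak by −log10 q within its library's list (points), for end peaks (left) and inside peaks (right). Dashed lines are the members' medians and black lines the medians of all peaks of that class, and the dashed lines of the end peaks (24.3 to 33.2) lie below the black ones (58.6 to 66.2).

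Among thick filament genes, 3 of 14 had an end peak in both CTRL libraries (21.4%, all genes 32.1%). In no library was there an end peak at 8 of them (57.1%), near the share of all genes (57.7%). Mylpf encodes the fast regulatory light chain, and its end peak had 5.50- and 12.7-fold enrichment in CTRL replicates 1 and 2 and 4.54-fold in C26 replicate 1, with no peak in C26 replicate 2. This peak spanned 1518 bp in CTRL replicate 2 (chromosome 7, 127208034 to 127209551). Its summits lay 2513 to 2617 bp upstream of the annotated Mylpf start and 523 to 627 bp from the start of Tbc1d10b, so it cannot be given to either gene alone. Mylk2, the skeletal myosin light chain kinase, had end peaks with 4.48-fold enrichment in CTRL replicate 1 and 7.51-fold in CTRL replicate 2 (chromosome 2, merged region 152911146 to 152911613) and none in either C26 library. Mybpc2, the fast myosin-binding protein C, had a peak 669 and 540 bp upstream of its start with 5.07- and 5.38-fold enrichment in the CTRL libraries and none in C26 muscle. That peak lay 657 and 786 bp from the nearer end of Spib, whose start is 6733 bp away or more.

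The myosin heavy chain genes, which encode the motor of the thick filament, carried almost no peaks. Of the 6 such genes, Myh1, Myh2, Myh3, Myh7 and Myh8 had no end or inside peak in any library. The same held for 50.3% of all protein-coding genes. Myh4, the fastest adult isoform, had 1 end peak in CTRL replicate 2 (5.51-fold, 136 bp upstream of the start) and none elsewhere. The light chain genes Myl2 and Myl3 also had no peak in any library. Myl1, the fast essential light chain, had inside peaks in both CTRL libraries and none in C26 muscle. An inside peak of Myl1 in CTRL replicate 1 (4.40-fold) lay 64 bp downstream of the annotated start. Mybpc1, the slow myosin-binding protein C, had 1 end and 1 inside peak, both in CTRL replicate 2. Mybph, a relative of myosin-binding protein C, had an inside peak with 5.42- and 6.88-fold enrichment in the CTRL libraries and 3.25-fold in C26 replicate 1, at 2699 to 2979 bp downstream of its start. The C26 peak of Mybph was among the weakest of its list (percentile 0.120).

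Among thin filament genes, 6 of 12 had an end peak in both CTRL libraries (50%, all genes 32.1%) and the other 6 had none in any library (50%, all genes 57.7%). Tnnt3, the fast troponin T, was 1 of 2 sarcomere genes with an end peak in all 4 libraries, a pattern found at 12.7% of all genes. Its enrichment was 5.84- and 5.28-fold in CTRL replicates 1 and 2 and 4.70- and 5.61-fold in C26 replicates 1 and 2 (chromosome 7, 142498438 to 142498960). CTRL replicate 2 alone had 2 inside peaks at Tnnt3 (6.08- and 5.95-fold), and 1 each at Mylpf, Mylk2 and Actn3. Tnnc2, the fast troponin C, had end peaks in 3 libraries, with 5.94-fold enrichment in CTRL replicate 1, 4.88-fold in CTRL replicate 2 and 3.96-fold in C26 replicate 1, the summits lying 269, 86 and 479 bp upstream of the start. A second peak of 4.88-fold lay 767 bp downstream of the start in CTRL replicate 2. Tnni2, the fast troponin I, had an end peak of 3.46-fold in CTRL replicate 1 and 3 end peaks of 4.36- to 5.75-fold in CTRL replicate 2, and no C26 peak. The slow troponins Tnnc1, Tnni1 and Tnnt1 and the cardiac actin Actc1 had no peak of either class in any library.

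Acta1, which encodes the main actin of adult skeletal muscle, carried its recurrent peak downstream of its start. The peak had 4.48-fold enrichment in CTRL replicate 1, 5.38-fold in CTRL replicate 2 and 4.13-fold in C26 replicate 1, with summits 2562, 2457 and 2618 bp downstream of the start (chromosome 8, 123891873 to 123892532). At 3018 bp in length, Acta1 counts these as end peaks because they are near its far end. CTRL replicate 2 alone had 2 more, 3390 bp downstream (6.49-fold) and 948 bp upstream of the start (6.12-fold). C26 replicate 2 had none.

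The tropomyosins, coiled-coil proteins that lie along the thin filament, held the strongest peaks of the whole gene set. Inside Tpm2, which encodes beta-tropomyosin, a peak on chromosome 4, 43519703 to 43520570, had 21.3- and 49.6-fold enrichment in CTRL replicates 1 and 2 and 13.5- and 15.7-fold in C26 replicates 1 and 2. Its summits lay between 3406 and 3425 bp downstream of the annotated start, and its percentiles within the lists were 94.2, 97.2, 91.7 and 89.6. It was the sole sarcomere gene peak above percentile 90 in any list. Tpm2 also had end peaks in the CTRL libraries alone, 130 bp downstream of the start in replicate 1 (4.14-fold) and 621 bp upstream in replicate 2 (6.69-fold), and these 2 peaks did not overlap. A peak 1650 and 1459 bp downstream of the start was present in both CTRL libraries (2.83- and 6.12-fold).

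Tpm3, which encodes slow alpha-tropomyosin, also makes shorter non-muscle tropomyosins from an inner promoter, and its peak lay at an inner start. The annotated starts are at 90072651 and 90079521 on chromosome 3. No peak lay within 1000 bp of the first, and all 4 libraries had a peak with its summit 75 to 82 bp downstream of the second. Enrichment was 12.7- and 14.2-fold in CTRL replicates 1 and 2 and 9.64- and 6.90-fold in C26 replicates 1 and 2. Tpm3 was the member of the slow list with a peak in both CTRL libraries, and that peak is not at the outer start. Tpm1 had a peak 163 and 302 bp upstream of its start in CTRL replicates 1 and 2 (9.27- and 7.59-fold) and 152 bp upstream in C26 replicate 1 (3.19-fold, percentile 5.94), with none in C26 replicate 2. Neb, which encodes nebulin, the ruler of the thin filament, had an inside peak in CTRL replicate 2 (6.78-fold) and C26 replicate 1 (5.96-fold).

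Titin and the Z-disc genes were mixed. Ttn had a peak 67, 82 and 67 bp upstream of its start in CTRL replicates 1 and 2 and C26 replicate 1, with 5.07-, 9.86- and 4.49-fold enrichment, and none in C26 replicate 2. Peaks at 2198 and 2136 bp and at 4687 and 4754 bp downstream of the Ttn start were present in both CTRL libraries and absent from both C26 lists (4.21- and 5.33-fold, and 5.98- and 7.25-fold). Of 9 Z-disc and desmin genes, 2 had an end peak in both CTRL libraries (22.2%, all genes 32.1%), namely Des and Actn3.

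Des was the other sarcomere gene with an end peak in all 4 libraries. It had 9.75- and 8.88-fold enrichment in CTRL replicates 1 and 2 and 4.93- and 6.89-fold in C26 replicates 1 and 2 (chromosome 1, 75360007 to 75360973). The summits lay 3 bp upstream, 43 bp downstream, 58 bp upstream and 26 bp downstream of the start, so all were within 94 bp of the first base of the TGACG match printed above. An inside peak 1714 and 1676 bp downstream of the Des start was present in the CTRL libraries alone (5.07- and 3.75-fold).

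Tcap, which encodes telethonin, the cap of titin at the Z-disc, was the only member with an end peak in both C26 libraries and in 1 CTRL library (found at 0.196% of all genes). Enrichment was 12.5-fold in CTRL replicate 2 and 6.58- and 5.99-fold in C26 replicates 1 and 2, and CTRL replicate 1 had no peak there (chromosome 11, 98383211 to 98383954). Actn3, the alpha-actinin of fast fibers, had end peaks with 3.45- and 8.53-fold enrichment in the CTRL libraries and 4.25-fold in C26 replicate 1. Its summits lay 46 to 113 bp from the start of Zdhhc24, so this peak is shared with that gene. Actn2, the other sarcomeric alpha-actinin, had inside peaks in 3 libraries, at 2781 bp from its start in CTRL replicate 1 (8.32-fold) and at 56734 and 56771 bp in CTRL replicate 2 (8.32-fold) and C26 replicate 2 (5.44-fold). CTRL replicate 2 also had an end peak 259 bp downstream of the Actn2 start (5.90-fold) and a second inside peak at 23237 bp (5.51-fold). Ldb3, which encodes the Z-disc protein ZASP, had inside peaks of 6.88- and 6.33-fold in CTRL replicate 1, 5.47- to 8.24-fold in CTRL replicate 2 and 4.51- and 3.84-fold in C26 replicate 1. A pair of these lay 28 bp upstream and 15 bp downstream of annotated Ldb3 starts, in CTRL replicate 1 and C26 replicate 1.

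The remaining Z-disc genes had few peaks. Myoz1, a calsarcin of fast fibers, had an inside peak in each CTRL library and none in C26 muscle, Myoz3 had 1 end peak in CTRL replicate 2, and the slow calsarcin Myoz2 had none. Cryab, a small heat shock protein that protects desmin, had 1 end peak in CTRL replicate 2, 49 bp from the start of 2310030G06Rik. It also had an inside peak in CTRL replicate 2 and in C26 replicate 2, both within 1000 bp of an end of Hspb2.

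**Figure D3:**
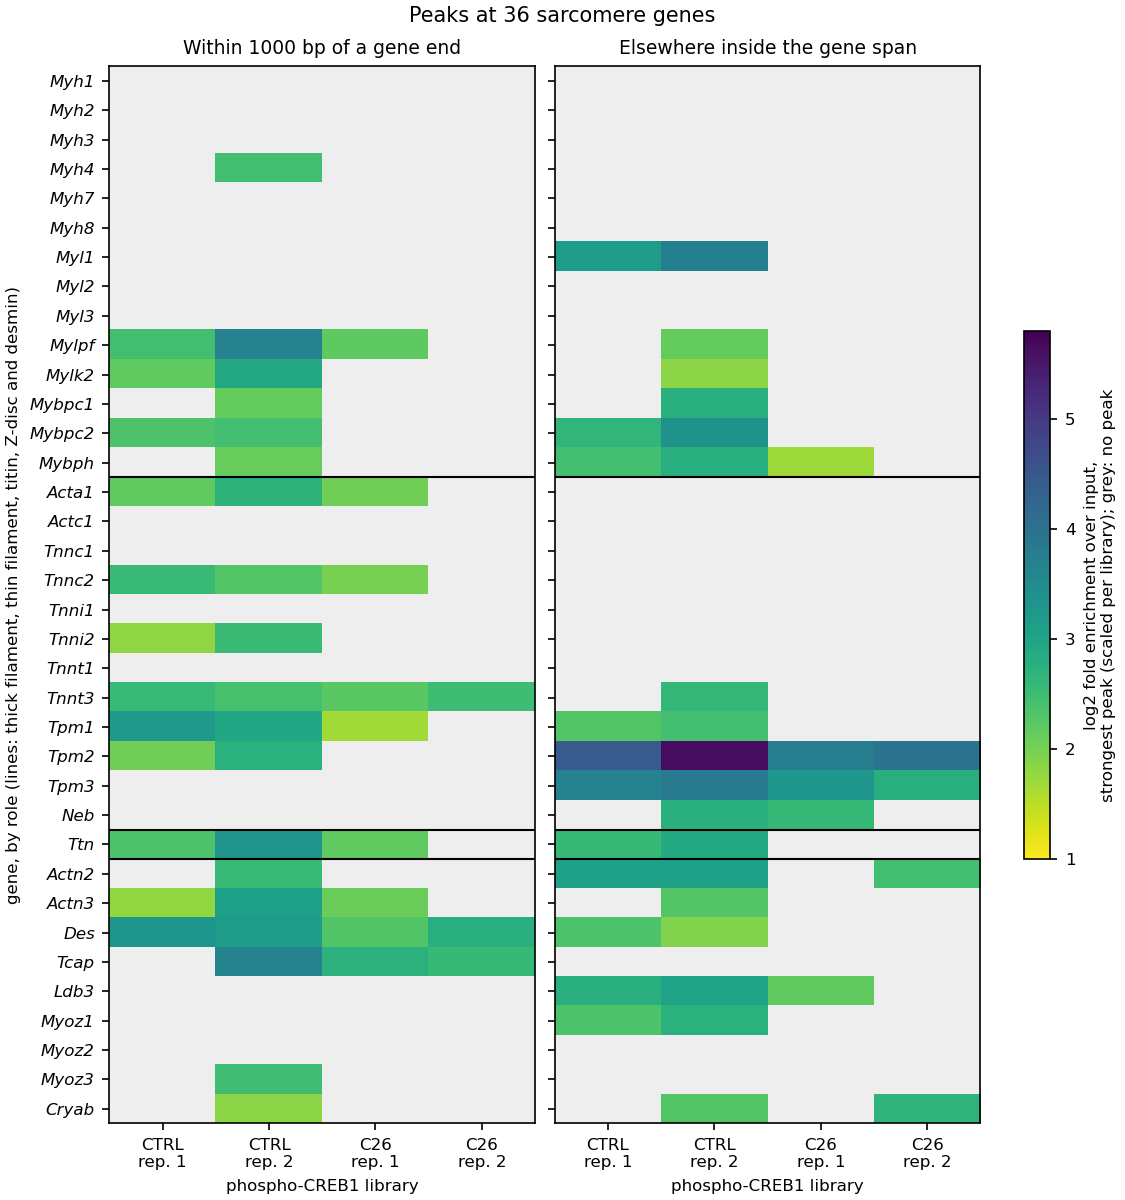
Strongest end peak (left) and inside peak (right) of each of the 36 sarcomere genes in each library, as log2 fold enrichment over input; grey means no peak, and colors are scaled per library by the peak caller and are not compared between columns. Tnnt3 and Des have an end peak in all 4 columns, Tpm2 and Tpm3 an inside peak in all 4, and 12 genes are grey throughout.

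The isoform lists gave the following counts. An end peak in both CTRL libraries was present at 6 of 11 fast genes (54.5%), 0 of 9 slow genes and 0 of 3 developmental genes, beside 32.1% of all genes. Among the fast genes, the end peaks of Mylpf, Actn3 and Mybpc2 also lay within 1000 bp of an end of another gene. A peak within 1000 bp of an annotated start in both CTRL libraries was present at 2 of 7 fast genes (28.6%). It was present at 1 of 9 slow genes (11.1%) and 0 of 3 developmental genes, beside 34.8% of all genes. No end or inside peak in any library was found at 12 members (33.3%, all genes 50.3%), of which 7 were slow (Myh7, Myl2, Myl3, Tnnc1, Tnni1, Tnnt1 and Myoz2), 3 developmental (Myh3, Myh8 and Actc1) and 2 fast (Myh1 and Myh2). For these 12 the nearest summit of any library lay 1481 to 39448 bp from the gene (median 12418 bp). The lists are short and were set with earlier results of these data known, so the counts are a description.

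Comparing the groups, end peaks were present at 15.5 ± 4.95 members per CTRL library and 6 ± 4.24 per C26 library (SD, n = 2 per group). The difference was 9.50 members (two-sided exact permutation p = 0.333, the smallest that 2 libraries against 2 allow), and in lists trimmed to 4051 peaks it turned to −0.500. The 2 groups did not overlap in this count, nor did they in the share of all genes with an end peak (33.9% and 40.1% in CTRL, 26.1% and 14% in C26 libraries). Of the 12 members with an end peak in both CTRL libraries, 2 had one in both C26 libraries (Tnnt3 and Des). Another 6 had one in C26 replicate 1 alone (Acta1, Actn3, Mylpf, Tnnc2, Tpm1 and Ttn), which with 1 C26 library is 16.7% of members and 12% of all genes. The other 4 had none in C26 muscle (Mylk2, Mybpc2, Tnni2 and Tpm2). The last pattern was found at 11.1% of the members and at 7.4% of all genes. As a share of genes with an end peak in both CTRL libraries it was 33.3% of the members and 23.0% of all such genes, and a peak in all 4 libraries was present at 16.7% and 39.6%.

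The longer a list was, the more members had an end peak in it. The members' median end peak percentiles (24.7 and 32.0 for CTRL replicates 1 and 2, 24.3 and 33.2 for C26) did not follow that order. The part of list length and peak strength in the shares above was not tested. Among genes whose strongest end peak of CTRL replicate 1 ranked at or below percentile 50 of that list, a split chosen after seeing the data, 4 of 9 members had no C26 end peak (44.4%), beside 51.7% of 2250 genes. The number with no C26 peak was 4 without C26 replicate 2 and 10 without C26 replicate 1 or without CTRL replicate 1. No share of all genes is given beside these counts, which leaving out a library can only keep or raise. No member had end peaks in C26 muscle alone in both replicates, a pattern present at 0.0274% of all genes. An end peak in both C26 libraries was present at 3 members (8.33%), beside 13% of all genes. Inside peaks in both C26 libraries were found at 2 members, Tpm2 and Tpm3 (5.56%, all genes 2.93%), which had them in all 4 libraries (all genes 2.58%). Of the 11 members with an inside peak in both CTRL libraries, 6 had none in C26 muscle (54.5%, beside 32.5% of all genes with such CTRL peaks, or 16.7% of all members and 2.71% of all genes) and 3 had one in 1 C26 library (8.33% of members, 3.04% of all genes). No member had inside peaks in both C26 libraries and no CTRL library (0.0777% of all genes).

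Merged across libraries, the peaks of the sarcomere genes formed 63 regions. Of these, 11 were found in both CTRL libraries and not in C26 muscle (17.5%, all regions 15.7%), 7 in both CTRL and 1 C26 library (11.1%, all regions 18.4%) and 4 in all 4 libraries (6.35%, all regions 16.9%). The 4 regions in all libraries were those at the ends of Tnnt3 and Des and inside Tpm2 and Tpm3. No region was present in both C26 libraries alone, and 29 were present in CTRL replicate 2 alone (46.0%, all regions 29.3%). CTRL replicate 2 had the longest list. A single merged region joined the CTRL peaks of both libraries at the end of 11 members and inside 9 members.

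Peak position along the genes was counted next. Annotated starts were available for 27 members. Of the 31 end peaks of these genes, 26 were nearer the end of the span where the gene begins by its strand. They include the Mylpf end peaks, which lay 2513 to 2617 bp upstream of the annotated start. This count was not made for all genes. Many other peaks lay over 1000 and up to 5000 bp downstream of the nearest start, a range chosen after seeing the data. In CTRL muscle such peaks made up 11 of 23 member peaks of replicate 1 (47.8%, all genes 4.10%) and 12 of 38 of replicate 2 (31.6%, all genes 5.70%). In C26 muscle they made up 3 of 11 (27.3%, all genes 3.53%) and 1 of 4 (25%, all genes 3.79%). Peaks within 1000 bp of a start made up 39.1%, 36.8%, 54.5% and 50% for the members and 76.0%, 68.7%, 79.8% and 78.1% for all genes.

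Counted by gene, a peak over 1000 and up to 5000 bp downstream of a start in both CTRL libraries was present at 8 of 27 members (29.6%), beside 1.43% of 17491 genes with an annotated start. The 8 genes were Acta1, Des, Mybpc2, Mybph, Myl1, Tpm1, Tpm2 and Ttn. At Tpm1 the peaks did not overlap, lying 2061 bp downstream in CTRL replicate 1 and 1306 bp downstream in CTRL replicate 2. With peaks of −log10 q of at least 5 the count was 5 of 27 (all genes 0.955%), and in the trimmed lists it was 2 of 27 (all genes 0.349%). Both C26 libraries had one at 1 of 27 members (3.70%, all genes 0.452%). In C26 muscle Acta1, Mybph and Tpm2 had such a peak in replicate 1 and Tpm2 alone in replicate 2. Values of Myl1, Myh4 and Neb are given although the rule for named genes did not call for them, and were chosen after being seen. The Myl1 peak 1188 and 1229 bp downstream of the start had 8.97- and 13.2-fold enrichment in CTRL replicates 1 and 2.

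**Figure D4:**
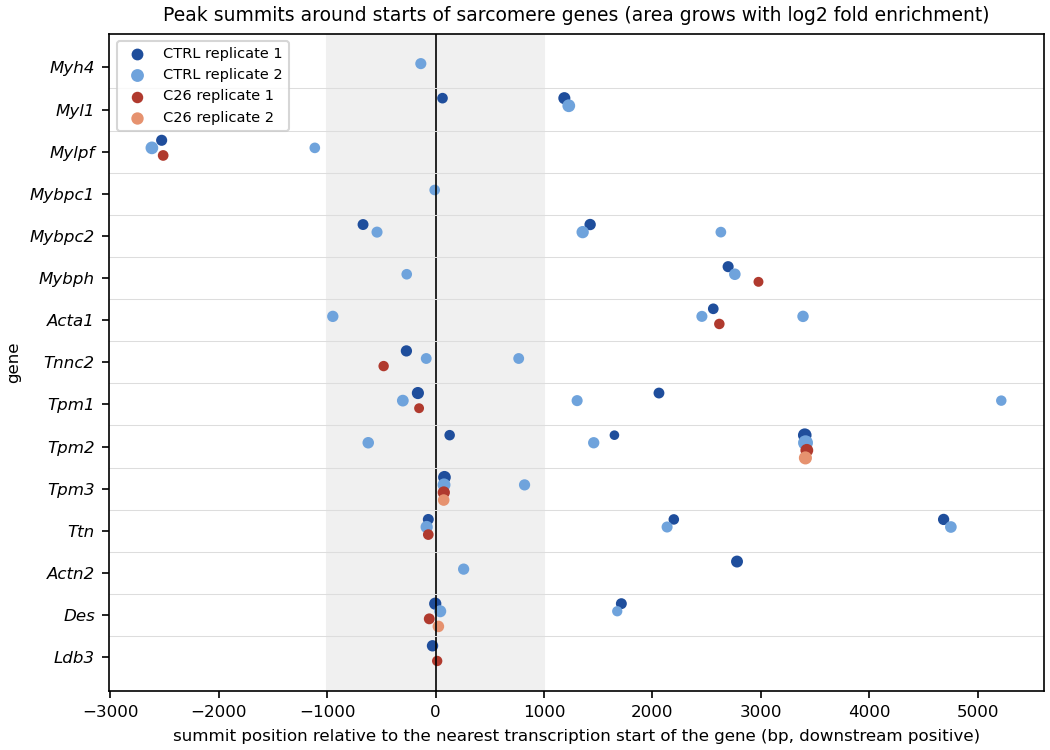
Summits of sarcomere gene peaks that lie up to 3000 bp upstream or 6000 bp downstream of the nearest annotated start (bp, downstream positive), by gene and library (colors); the grey band is 1000 bp on either side of the start. Tpm3 and Des have summits of all 4 libraries at a start, while the Tpm2 summits of all 4 libraries lie 3406 to 3425 bp downstream.

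Sarcomere promoters were searched for the letters of a cAMP response element. Of 32 promoter windows of the 27 members in the RefSeq table, 0 held TGACGTCA, and 2.23% of 21262 windows of protein-coding genes did, on either strand. A count of 0 in 32 windows cannot be told apart from a share of 2.23%. The shorter TGACG, which also counts every full site, was found in 5 of 32 windows (15.6%, all windows 23.6%), those of Des, Tpm1, Tnnt1 and both Myh7 starts. Across all genes, windows whose start had a peak in all 4 libraries held TGACGTCA in 10.0% and TGACG in 58.9% of cases, and windows with no start peak held them in 0.759% and 13.0%. Among member windows with a start peak in both CTRL libraries, 2 of 7 held TGACG (Des and Tpm1), and among those with no start peak 3 of 17 did. In Tpm1 the match lay 201 bp upstream of the start, 38, 101 and 49 bp from the summits of CTRL replicates 1 and 2 and C26 replicate 1. In Myh7 it lay 119 bp upstream of a start with no peak in any library.

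Letters of other promoter motifs were counted in the same windows. A CArG motif was present in 6 of 32 (18.8%, all windows 1.52%), a MEF2 motif in 2 of 32 (6.25%, all windows 0.489%), TATAAA in 11 of 32 (34.4%, all windows 12.6%), CATTCC (the MCAT motif) in 11 of 32 (34.4%, all windows 13.6%) and CANNTG in 28 of 32 (87.5%, all windows 69.0%), each on either strand. Each window is counted, so the CArG windows are those of Acta1, Actc1, Myh4 and Myl3 and both overlapping windows of Ldb3. None of the 7 member windows with a start peak in both CTRL libraries held TATAAA or a CArG motif. Across all genes, windows with a start peak in all 4 libraries held TATAAA in 5.61% and a CArG motif in 1.30% of cases. A count of 0 in 7 windows cannot be told apart from these shares. Member windows had a median of 6 CpG dinucleotides, all windows 13, and windows with a start peak in all 4 libraries 24, while median GC content was 56.8%, 56.3% and 62.3%.

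Other genes of the sarcomere and its assembly were compared as a list of 30. An end peak in both CTRL libraries was present at 13 of them (43.3%) and an inside peak at 8 (26.7%), beside 32.1% and 8.33% of all genes. End peaks in all 4 libraries were found at Pdlim3, a Z-disc LIM protein (12.8- and 17.2-fold in CTRL replicates 1 and 2, 9.99- and 9.94-fold in C26 replicates 1 and 2), Xirp1 and the co-chaperone gene Bag3. Among 11 non-muscle relatives of the contractile genes, 6 had an end peak in both CTRL libraries (54.5%). The non-muscle light chain gene Myl6 reached 49.1- and 55.9-fold in CTRL replicates 1 and 2 and 20.6- and 26.2-fold in C26 replicates 1 and 2, and Tpm4, the non-muscle tropomyosin, 23.0- and 19.0-fold in CTRL and 18- and 14-fold in C26 muscle. Myl6 and Tpm4 had the highest values of the 11 in every library, and Myl12b had no end peak. The median strongest end peak of these relatives was 9.18-, 9.32-, 5.17- and 10.5-fold in the same lists. For the members it was 5.07-, 5.90-, 4.49- and 5.99-fold. No end peak of a member exceeded 9.75-, 12.7-, 6.58- and 6.89-fold in these lists, while the inside peak of Tpm2 reached 21.3-, 49.6-, 13.5- and 15.7-fold.

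The myosin heavy chain cluster on chromosome 11 holds Myh3, Myh2, Myh1, Myh4 and Myh8 in a row, and its peaks lay between genes. This stretch was examined after its values were seen. From Myh3 to Myh8 (67078273 to 67308634, 230362 bp) the libraries had 6, 6, 2 and 2 peaks in the order CTRL replicates 1 and 2 and C26 replicates 1 and 2. All but the Myh4 peak of CTRL replicate 2 lay in the 68735 bp between Myh3 and Myh2 (67102292 to 67171026). They formed 6 sites, and the site 12859 bp after the end of Myh3 was occupied in each of the 4 libraries (67114729 to 67115517), with 10.8- and 7.31-fold enrichment for CTRL and 4.03- and 7.97-fold for C26. The site at 18657 bp had a peak in both CTRL libraries and C26 replicate 2 (9.34-, 4.47- and 6.57-fold). The sites at 3576, 17476 and 23261 bp had a peak in both CTRL libraries and none in C26 muscle, and the site at 37372 bp had one in CTRL replicate 1 and C26 replicate 1.

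**Figure D5:**
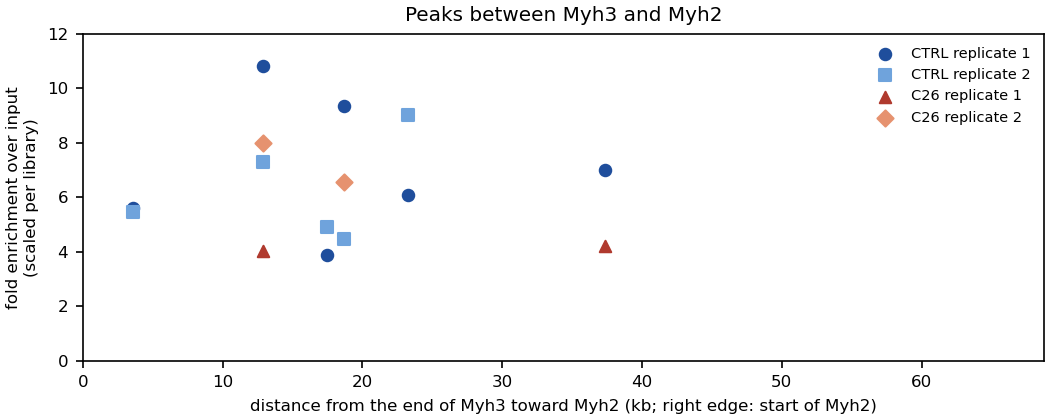
Fold enrichment over input of each peak between Myh3 and Myh2, by distance from the end of Myh3 (kb); values are scaled per library and are not compared between libraries. The site 12859 bp after Myh3 holds a peak of every library.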

How the data were processed

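The 4 peak lists were deposited per phospho-CREB1 library, called one by one against an input of the same group at a q threshold of 0.05, per the labels, with no pooling of replicates. MACS2 2.1.4, SAMtools 1.6, Bowtie2 2.3.5.1, FastQC 0.11.2, Picard and the build mm10 (GRCm38) are named in the submitters' processing notes. What a later filter on the lists removed is not given in the sources used here. The authors' peak caller gave each peak a fold enrichment over input (a ratio), a −log10 q-value and a score, deposited as such, where the score is −log10 q times 10, rounded down. Signal tracks and read counts were not analysed here.

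From these lists, summits were placed against gene spans (GRCm38.p6, RefSeq) with Python 3.11.15 and pandas 2.3.3, in windows of 1000 bp. Regions were merged at 1 bp of overlap. The assignment of peaks to genes was tested on simulated data. Starts came from the RefSeq promoter table, matched by symbol for 27 of 36 members. The members and gene lists were chosen with earlier results of these data known. Values in every library are given for members with an end peak in both libraries of a group or an inside peak in at least 3 libraries, and others are named with counts. Group counts were compared by exact permutation, and presence by counts beside all genes. Alternatives were windows of 500 and 2000 bp, −log10 q of at least 5, lists trimmed to the shortest, any overlap of 1 bp, each library left out, half-peak merging, ends over 4000 bp apart and peaks shared with other genes left out.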

Additional observations from a re-analysis of the deposited data

How the results depend on the processing

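Depth is unknown, which limits what an absent peak shows. With −log10 q of at least 5, end peaks were present in both CTRL libraries at 4 of 36 members, beside 27.8% of all genes. They were present in all 4 libraries at 1 member (all genes 9.79%) and in CTRL alone at 1 (all genes 7.29%). Peaks over 1000 and up to 5000 bp downstream of a start in both CTRL libraries were present at 5 of 27 members (all genes 0.955%). With trimmed lists these member counts were 0, 0, 0 and 2 (all genes 14.6%, 9.68%, 1.06% and 0.349%). Members with an inside peak in both CTRL libraries numbered 3 (all genes 2.07%), and the difference in members per library turned to −0.500. A window of 500 bp gave 2 members with an end peak in both CTRL libraries and none in C26 muscle. The causes of these shifts were not tested. Leaving out 1 library at a time, members with an end peak numbered 12 to 19 in both CTRL libraries (19 without CTRL replicate 1), 2 to 8 in all libraries (8 without C26 replicate 2), 4 to 10 in CTRL alone (10 without CTRL replicate 1 or C26 replicate 1) and 0 to 1 in C26 alone (Tcap, without CTRL replicate 2). The difference in members per library was then 6 to 13. Inside peaks were then present in both CTRL libraries at 11 to 18 members and in both C26 libraries at 2 to 5. Without one CTRL library the downstream count was 8 or 9. No share of all genes is given beside these leave-one-out counts of members by pattern. Leaving out a library can only keep or raise them, for any set of genes. The other alternatives moved no count by over 1.5 times. The labels do not say that replicate numbers pair libraries. With the replicate block, a comparison added after seeing the data, the difference within number 1 was 3 members and within number 2 it was 16, with a mean of 9.50 (two-sided exact sign-flip permutation p = 0.500, the smallest that 2 pairs allow).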
